A study of Mus musculus with 11 samples.

Results

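Of the 22180 genes measured by a probe set with a single gene symbol, 7 encode components or close partners of the pre-B-cell receptor and are described here. They are Igll1, Vpreb1 and Vpreb2 of the surrogate light chain, the VpreB-like Vpreb3, the signalling chains Cd79a and Cd79b, and Mzb1, a cochaperone of immunoglobulin assembly. Each was represented by the single-symbol probe set with the highest mean over the 11 arrays, and each had exactly 1 such probe set, so no choice between probe sets was made for any member. The cells were bone marrow CLPs (common lymphoid progenitors), from which lymphocytes develop, sorted from C57BL/6 mice and hybridised to Mouse Gene 2.0 ST arrays. The groups were Ly-6D+ CLPs after CpG (3 arrays), Ly-6D+ CLPs after PBS (2 arrays), Ly-6D- CLPs after CpG (3 arrays) and Ly-6D- CLPs after PBS (3 arrays). CpG was 50 µg of the oligonucleotide CpG1826, a synthetic ligand of Toll-like receptor 9, given on alternate days, and PBS was its vehicle. The cells of all groups were sorted on day 10. The age of the mice is not given in the sources used here, nor whether arrays stand for single animals or pools, or whether both populations came from the same mice. The p values therefore measure only the spread between these samples, which may be technical. Detection values were not used here, and the number of arrays limits the precision.

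The pre-B-cell receptor is the checkpoint through which a B-cell precursor tests its newly rearranged immunoglobulin heavy chain. The heavy chain pairs with a surrogate light chain, built from the λ5 protein (encoded by Igll1) and a VpreB protein, and the complex reaches the surface with the CD79a and CD79b chains, whose cytoplasmic tails carry the tyrosine motifs that recruit Syk-family kinases. Ebf1 and Pax5, with the E proteins such as Tcf3, are the transcription factors best known for driving these genes. Surface Ly-6D marks the CLPs that have begun B-cell development, and the receptor's surrogate light chain genes are among the earliest B-lineage transcripts.

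The marker genes of the sort were checked first, on the log2 scale of the deposited levels. Ly6d, which encodes the protein used in the sort, was at 12.55 to 12.61 in Ly-6D+ CLPs after CpG and 12.56 to 12.59 in Ly-6D+ CLPs after PBS, against 7.47 to 8.08 in Ly-6D- CLPs after CpG and 8.03 to 8.50 in Ly-6D- CLPs after PBS. Il7r, the interleukin 7 receptor that helps define CLPs, lay between 9.05 and 10.85 over all arrays, Flt3 between 10.36 and 10.87 and Kit between 8.13 and 9.42. Ly6a, another gene used to gate CLPs, was not analysed here. Ms4a1, which encodes the CD20 protein of later B cells, was at 2.41 to 3.20 on all arrays, under the array medians of 3.85 to 3.96. Among the listed mature B-cell and plasma-cell markers (9 measured) levels differed widely. Ighm was at 12.12 to 12.81 on all arrays, Cd37 at 9.66 to 10.28 and Sdc1 at 8.21 to 9.99. In contrast, Cr2 was at 2.77 to 3.51 and Fcer2a at 2.58 to 3.72. The sum of the list adds unlogged levels, so Ighm weighs most in it. After PBS the log2 of this sum was 13.10 to 13.19 in Ly-6D+ CLPs against 12.82 to 12.90 in Ly-6D- CLPs. After CpG it was 13.18 to 13.20 in Ly-6D+ CLPs against 12.51 to 12.80 in Ly-6D- CLPs.

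The stretches before the RefSeq start sites are shown because several members moved together and share known regulators. RefSeq sequences of build GRCm38.p6 were held for Igll1, Vpreb1, Vpreb2, Vpreb3 and Cd79a and for neither Cd79b nor Mzb1. All are written 5′ to 3′ on the gene's own strand. The start sites used for Vpreb2 and Vpreb3 lie inside their annotated genes, chr16:17979445-17981274 and chr10:75943024-75949657. Those of Igll1, Vpreb1 and Cd79a lie at the edge of theirs. Positions given for Vpreb2 and Vpreb3 therefore depend on the start site taken. The first pair shows how alike the regions before Vpreb1 and Vpreb2 are, over the same 30 bases, with the base that differs in capitals. They lie at chr16:16869332-16869361 on the minus strand, positions -106 to -77 from the Vpreb1 start, and at chr16:17980315-17980344 on the plus strand, positions -250 to -221 from the Vpreb2 start.
Vpreb1: tggcccatgacGttccagcaggtgcttcct
Vpreb2: tggcccatgacTttccagcaggtgcttcct

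Over the 106 bases that both upstream windows share, 104 were identical (98.1%). The same letters lie nearer to the start site used for Vpreb1 than to that used for Vpreb2, which lies inside the annotated gene. Vpreb1 and Vpreb2 are near-identical copies, so a probe for one may also bind transcripts of the other. How the signal divides between their probe sets was not tested, and the values of both are uncertain for that reason.

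The stretch before Vpreb3 holds an octamer, the letters ATGCAAAT read on the other strand as ATTTGCAT (in capitals), which POU-domain factors and their B-cell coactivator Pou2af1 are known to bind. It lies at chr10:75948244-75948273 on the plus strand, positions -56 to -27 from the start, with the octamer at -45 to -38.
Vpreb3: tcagtgggctgATTTGCATgctctattgtg

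The 250 bases before Igll1 (chr16:16863986-16864235, minus strand) and before Cd79a (chr7:24897247-24897496, plus strand) are given with motif letters in capitals. In Igll1 these are an Ebf1 core, CCCNNGGG, at -231, and E-box letters, which E proteins are known to bind, at -158 and -8. In Cd79a they are E-box letters at -154.
Igll1: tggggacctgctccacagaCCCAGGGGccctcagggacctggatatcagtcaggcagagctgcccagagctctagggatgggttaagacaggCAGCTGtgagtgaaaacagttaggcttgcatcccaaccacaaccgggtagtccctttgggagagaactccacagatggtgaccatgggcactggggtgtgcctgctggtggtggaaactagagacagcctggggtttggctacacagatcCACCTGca
Cd79a: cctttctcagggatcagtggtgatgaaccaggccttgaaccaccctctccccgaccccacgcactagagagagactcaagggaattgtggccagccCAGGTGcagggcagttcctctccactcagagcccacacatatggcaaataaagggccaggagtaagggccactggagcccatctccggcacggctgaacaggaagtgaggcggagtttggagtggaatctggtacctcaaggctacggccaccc

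In all, 5 motifs were searched on both strands of the 250 bases before each start, and they were chosen from background knowledge after the sequences had been seen. The octamer ATGCAAAT was in the window of Vpreb3 and of 1.6% of all 32851 promoters held. The E-box CAGGTG was in the windows of Igll1, Vpreb1, Vpreb2 and Cd79a and of 17.2% of all promoters. The E-box CAGCTG was in those of Igll1 and Vpreb2 and of 13.0% of all promoters. The Ebf1 core CCCNNGGG was in that of Igll1 and of 11.8% of all promoters. The Ikaros core TGGGAA was in that of Vpreb2 and of 21.6% of all promoters, and there it shared bases with the CAGCTG letters. A match describes letters, not a bound site.

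**Figure D1:**
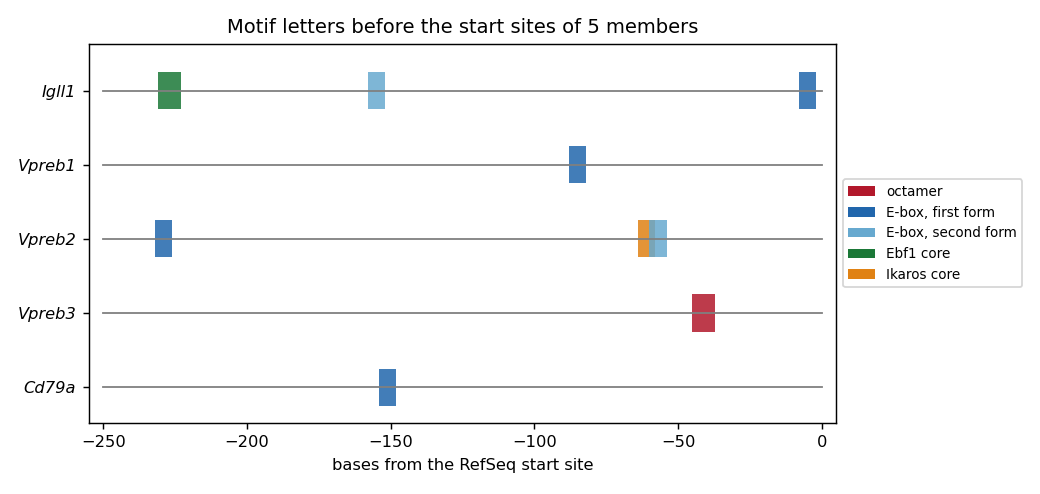
Positions of motif letters in the 250 bases before the RefSeq start sites of 5 members, in bases from the start site (x axis), with a row per gene and a colour per motif (E-box, first form, is CAGGTG and the second form is CAGCTG). Vpreb3 holds the octamer near the start site used, and the CAGGTG box of Vpreb1 lies at -88 against -232 for the same box in Vpreb2. The start sites used for Vpreb2 and Vpreb3 lie inside their annotated genes.

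Igll1 and Vpreb1 are neighbours on chromosome 16, with 0 annotated genes starting between them, while 52 start between Vpreb1 and Vpreb2. Igll1, which encodes λ5, was at 9.88, 9.51 and 10.17 in Ly-6D+ CLPs after CpG, against 10.60 and 10.68 in Ly-6D+ CLPs after PBS. In Ly-6D- CLPs it was at 4.08, 4.81 and 4.73 after CpG, against 4.83, 4.85 and 4.97 after PBS. Every Ly-6D+ array was above every Ly-6D- array, and in each population every CpG array was below every PBS array. The Ly-6D- levels of 4.08 to 4.97 were not shown to be above background, and the array medians were 3.85 to 3.96. The size of the differences from Ly-6D- CLPs, and of the change within them, is therefore uncertain. Over the arrays Igll1 spanned 6.60 log2 units, which ranked 2 among the ranges of the 22180 genes.

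Vpreb1 encodes one of the near-identical VpreB proteins. It was at 4.06, 3.94 and 4.43 in Ly-6D+ CLPs after CpG, against 3.94 and 4.23 after PBS, and at 3.94, 3.94 and 3.77 in Ly-6D- CLPs after CpG, against 3.88, 3.94 and 3.94 after PBS. The groups overlapped, and the gene spanned only 0.66 log2 units. The same deposited value recurred on 6 of the 11 arrays, as happened at least as often for 733 of 41345 probe sets (1.77%). The Vpreb1 levels of 3.77 to 4.43 lay about the array medians of 3.85 to 3.96 and were not shown to be above background.

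Vpreb2, the copy of Vpreb1, spanned 5.80 log2 units. It was at 10.16, 9.66 and 10.32 in Ly-6D+ CLPs after CpG, against 10.82 and 10.91 after PBS. The Ly-6D- arrays were at 5.60, 5.96 and 5.54 after CpG, against 6.23, 5.11 and 6.22 after PBS. The populations stood far apart. Within Ly-6D+ CLPs the CpG arrays were all below the PBS arrays, and within Ly-6D- CLPs they overlapped, with 1 PBS array at 5.11.

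Vpreb3 encodes a VpreB-like protein that binds newly made immunoglobulin chains inside the cell. It was at 8.07, 7.97 and 8.11 in Ly-6D+ CLPs after CpG, against 9.30 and 9.50 after PBS. In Ly-6D- CLPs it was at 4.66, 4.53 and 5.36 after CpG, against 5.47, 5.61 and 5.75 after PBS. Groups of the same population did not overlap, and within Ly-6D- CLPs the CpG array at 5.36 stood nearest to the PBS arrays.

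Cd79a, the Igα chain of the receptor's signalling pair, was at 9.28, 8.81 and 9.32 in Ly-6D+ CLPs after CpG, against 9.65 and 9.62 after PBS. The Ly-6D- arrays were at 4.60, 3.62 and 3.58 after CpG, against 5.07, 4.65 and 4.64 after PBS. In both populations the CpG arrays lay below the PBS arrays, in Ly-6D- CLPs with the CpG array at 4.60 just under the lowest PBS array. Its range of 6.07 log2 units ranked 4 among all genes.

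Cd79b, the Igβ chain, differed least between the populations among the members other than Vpreb1. It was at 9.44, 9.24 and 9.39 in Ly-6D+ CLPs after CpG, against 9.75 and 9.76 after PBS, and at 8.84, 8.88 and 8.71 in Ly-6D- CLPs after CpG, against 9.03, 8.71 and 8.51 after PBS. It was thus well above the array medians in Ly-6D- CLPs too. The CpG and PBS arrays of Ly-6D- CLPs overlapped.

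Mzb1, which with other chaperones of the endoplasmic reticulum helps fold and assemble immunoglobulin heavy chains, was at 8.84, 8.64 and 8.71 in Ly-6D+ CLPs after CpG, against 9.11 and 9.0 after PBS. Its Ly-6D- arrays were at 5.53, 4.72 and 5.76 after CpG, against 5.79, 6.14 and 5.62 after PBS. The populations did not overlap. Treatments overlapped in Ly-6D- CLPs and not in Ly-6D+ CLPs.

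**Figure D2:**
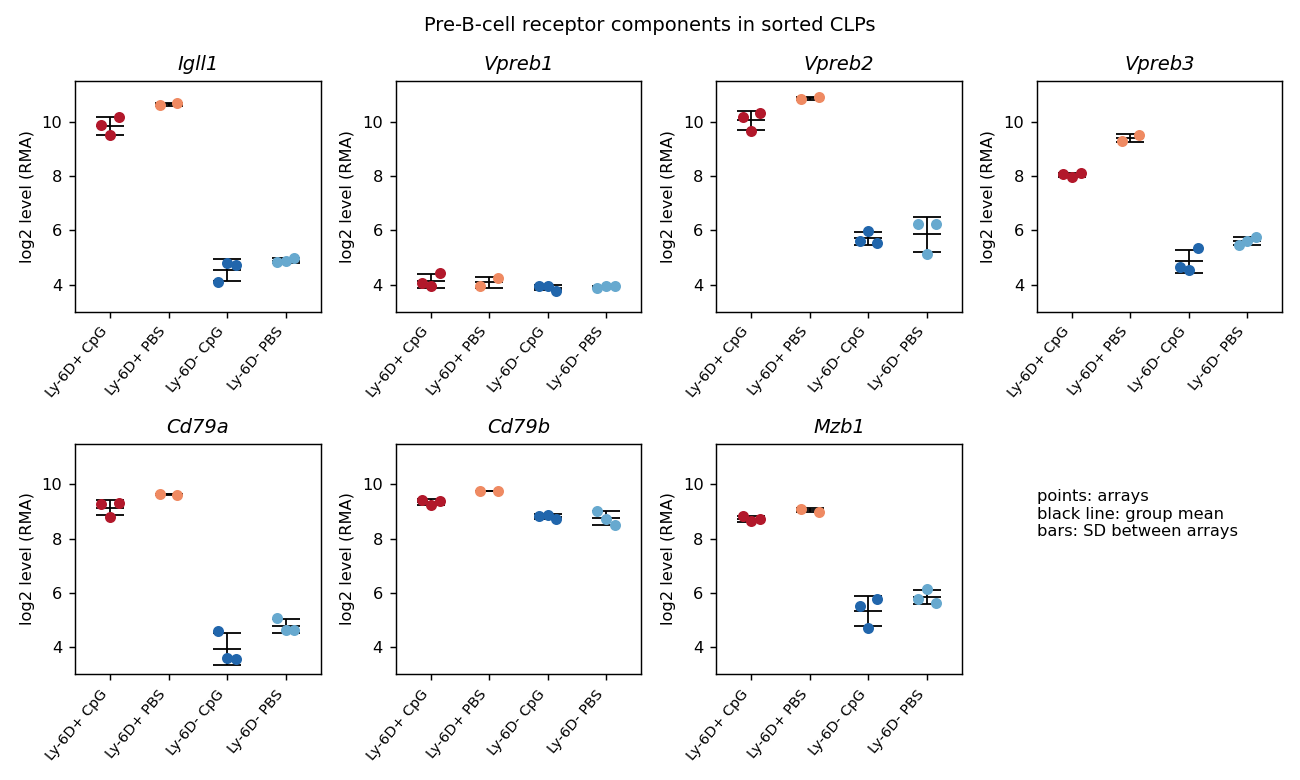
Log2 level (y axis) of each member on each array (points), with group means (black lines) and the SD between arrays (bars; 3, 2, 3 and 3 arrays from left to right). In 5 panels the Ly-6D+ arrays stand over 2 units above the Ly-6D- arrays, Cd79b shows a small step and Vpreb1 stays between 3.77 and 4.43.

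The comparison of populations asks how far the receptor's genes are already on once CLPs carry Ly-6D. After PBS, 6 of the 7 members were higher in Ly-6D+ CLPs and passed the limma test at an adjusted p below 0.05 over all 22180 genes (Benjamini-Hochberg), while 1.98% of all genes (439 genes) passed in either direction and 1.18% passed upward. The count over all genes was 185 to 416 when arrays were left out, lowest without either Ly-6D+ PBS array (185 without replicate 1 and 213 without replicate 2). Igll1 was 54.0-fold higher, at 10.64 ± 0.06 (SD, n = 2) in Ly-6D+ CLPs against 4.88 ± 0.08 (SD, n = 3) in Ly-6D- CLPs (log2 difference 5.76, SE 0.23, limma adjusted p = 1.68e-06). No other gene had a larger difference or a smaller p in this comparison. The Ly-6D- levels of Igll1 were not shown to be above background, so its fold difference is uncertain in size. Vpreb2 was 32.2-fold higher (5.01, SE 0.32, adjusted p = 1.72e-05) and Cd79a 28.8-fold higher (4.85, SE 0.29, adjusted p = 1.40e-05), which ranked 2 and 3 by size. Vpreb3 had a log2 difference of 3.79 (SE 0.21, adjusted p = 1.00e-05) and Mzb1 9.23-fold higher (3.21, SE 0.26, adjusted p = 1.18e-04). Every Ly-6D+ array was above every Ly-6D- array for 6 members, against 12.9% of all genes.

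Cd79b was 2.01-fold higher in Ly-6D+ CLPs after PBS (log2 difference 1.01, SE 0.14, limma adjusted p = 0.00468). Its call was lost without Ly-6D+ PBS replicate 1 (adjusted p = 0.0515) and in a fit of only the groups compared (adjusted p = 0.0982). Vpreb1 did not pass, with a log2 difference of 0.16 (95% interval -0.17 to 0.49, limma adjusted p = 0.774). Since its signal was not shown to be above background, its tests cannot show whether the gene's expression differs. The median difference of the 7 members was 3.79, against -0.009 over all genes.

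After CpG, 5 of the 7 members passed upward in Ly-6D+ CLPs, against 2.14% of all genes (474 genes) in either direction and 1.2% upward. The count over all genes was 264 to 516 when arrays were left out, with the lowest without Ly-6D- CpG replicate 2. Igll1 was 39.8-fold higher, at 9.85 ± 0.33 in Ly-6D+ CLPs against 4.54 ± 0.40 in Ly-6D- CLPs (SD, n = 3 each; log2 difference 5.31, SE 0.20, limma adjusted p = 4.93e-07). This fold difference is likewise uncertain in size, since the Ly-6D- levels of Igll1 were not shown to be above background. Cd79a had a log2 difference of 5.21 (SE 0.26, limma adjusted p = 2.95e-06), and its size is uncertain because 2 of its 3 Ly-6D- CpG arrays lay under the array medians and were not shown to be above background. Vpreb2 was 20.4-fold higher (4.35, SE 0.28, adjusted p = 2.77e-05). Mzb1 was 10.5-fold higher (3.39, SE 0.23, adjusted p = 3.61e-05) and Vpreb3 9.20-fold higher (3.20, SE 0.19, adjusted p = 1.20e-05). Igll1, Vpreb2, Vpreb3, Cd79a and Mzb1 therefore differed between the populations after either treatment. Cd79b had a log2 difference of 0.55 (SE 0.13) and did not pass (limma adjusted p = 0.0611), although its 3 Ly-6D+ arrays were all above its 3 Ly-6D- arrays. It passed in 7 of 21 alternatives, which include the same fit at a looser threshold of 0.10. Among the others were the dimmest 33.3% of genes left out (adjusted p = 0.0392), a trended, robust variance (0.0154), and fits without Ly-6D- PBS replicate 1 or 3. Such a separation was found for 6 members and 7.89% of all genes. Vpreb1 had a difference of 0.26 (95% interval -0.04 to 0.55).

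**Figure D3:**
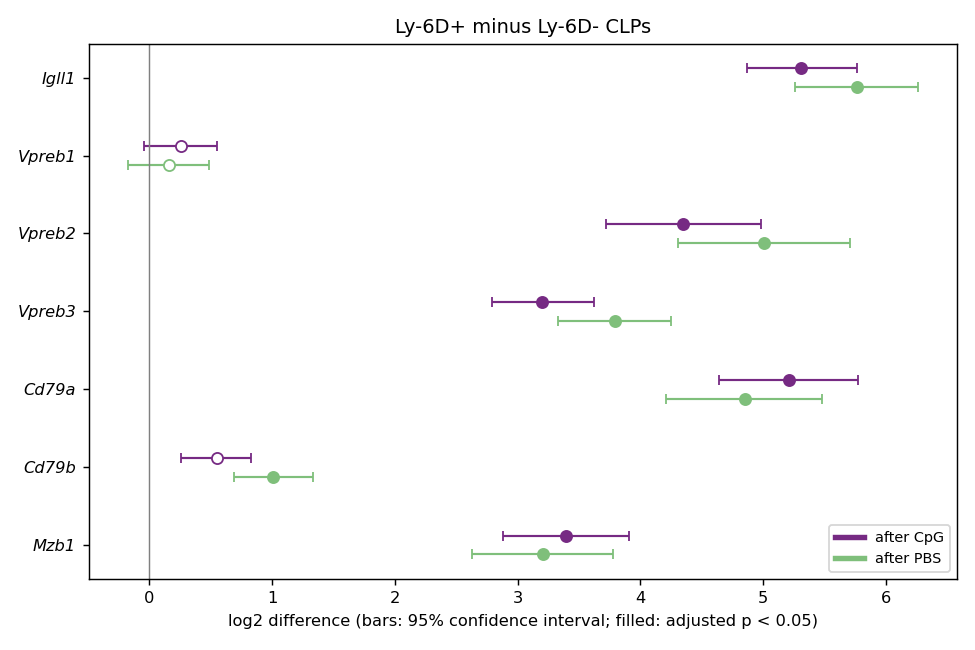
Log2 difference between Ly-6D+ and Ly-6D- CLPs (x axis, bars are 95% confidence intervals) for each member, after CpG and after PBS. Filled points passed the test over all genes. The Igll1 difference is 5.31 after CpG and 5.76 after PBS, whereas the intervals of Vpreb1 include 0.

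In sorted bulk cells a lower level from fewer cells that express a gene and one from less RNA per cell cannot be told apart. Markers of other cell types also moved with the populations. Of the 11 measured plasmacytoid dendritic cell markers, 10 were higher in Ly-6D+ CLPs after PBS, 6 of them past the test, and their summed level was 13.47 to 13.52 in Ly-6D+ CLPs after CpG and after PBS, against 12.53 to 12.56 in Ly-6D- CLPs after CpG and 12.55 to 12.67 in Ly-6D- CLPs after PBS (log2 of the sum). Their lectin Siglech was 6.80-fold higher in Ly-6D+ CLPs after PBS (log2 difference 2.77, SE 0.13, limma adjusted p = 2.27e-06). Spib and Tcf4 of that list are also in the list of B-lineage transcription factors. Of 8 measured haematopoietic stem cell markers, 7 were lower in Ly-6D+ CLPs after PBS, 6 past the test, with summed levels of 8.86 to 8.96 in Ly-6D+ CLPs against 9.92 to 9.94 in Ly-6D- CLPs. Granulocyte and monocyte markers were lower in Ly-6D+ CLPs for 13 of 15 after PBS, 2 past the test, and for 14 of 15 after CpG, 7 past the test. After CpG 7 plasmacytoid dendritic cell markers passed upward and 3 stem cell markers downward. Of 9 measured mature B-cell and plasma-cell markers, 8 were higher in Ly-6D+ CLPs after PBS, 0 past the test. After CpG 5 of them were higher, 2 past the test. Over all genes, 1.18% passed upward after PBS and 1.2% after CpG. Downward, 177 of 22180 genes passed after PBS and 208 after CpG. The part of all these markers in the members' differences was not tested.

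The next question was what CpG changed among these genes. In Ly-6D+ CLPs, 6 of the 7 members had every CpG array below every PBS array, a pattern that 9.76% of all genes showed with these 3 and 2 arrays. The median log2 change of the members was -0.50, against 0.003 for all genes. By the limma test with adjustment over all genes, 0 of 7 members passed, while 0.0271% of all genes (6 genes) did. At an unadjusted p under 0.05 there were 4 members, against 6.51% of all genes. The 6 genes became 4 to 16 when arrays were left out, with 16 when replicate 3 of Ly-6D+ CpG was omitted and 15 when replicate 2 of Ly-6D+ PBS was. The largest change was that of Vpreb3, 2.56-fold, at 8.05 ± 0.07 (SD, n = 3) after CpG against 9.40 ± 0.14 (SD, n = 2) after PBS (log2 change -1.35, SE 0.21, limma adjusted p = 0.117). It ranked 11 by p among all genes. It passed with a trended, robust variance (adjusted p = 0.0359) and without Ly-6D- CpG replicate 3 (adjusted p = 0.00619).

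The surrogate light chain genes, the signalling chains and Mzb1 had smaller changes in Ly-6D+ CLPs. The log2 change was -0.82 for Vpreb2 (SE 0.32, limma adjusted p = 0.690) and -0.78 for Igll1 (SE 0.23, adjusted p = 0.484). It was -0.50 for Cd79a (SE 0.29, adjusted p = 0.854), -0.40 for Cd79b (SE 0.14, adjusted p = 0.659) and -0.33 for Mzb1 (SE 0.26, adjusted p = 0.927). Vpreb1 was at 0.06 (95% interval -0.27 to 0.39). A change did not pass for any of these 6 genes in the alternatives run.

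In Ly-6D- CLPs, 0 of 7 members passed by limma, against 0.546% of all genes (121 genes), and 2 members had an unadjusted p under 0.05, against 12% of all genes. The 121 genes became 5 when replicate 2 of Ly-6D- CpG was omitted and 309 when its replicate 3 was, the extremes over the arrays left out, and 4 in a fit of only the groups compared. Every CpG array was below every PBS array for Igll1, Vpreb3 and Cd79a, 3 of 7, against 7.2% of all genes. Cd79a had a log2 change of -0.85 (SE 0.26, limma adjusted p = 0.197), with means of 3.93 ± 0.58 after CpG against 4.79 ± 0.25 after PBS (SD, n = 3 each). The size of this change is uncertain. The CpG arrays at 3.62 and 3.58 lay under the array medians of 3.85 to 3.96 and were not shown to be above background. The log2 change of Vpreb3 was -0.76 (SE 0.19, adjusted p = 0.120), which was -1.02 and passed without Ly-6D- CpG replicate 3 (adjusted p = 0.00661). Mzb1 was at -0.51 (SE 0.23, adjusted p = 0.419) and Igll1 at -0.34 (SE 0.20, adjusted p = 0.561). The remaining members were at -0.15 (Vpreb2), -0.04 (Vpreb1) and 0.06 (Cd79b).

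Averaged over both populations, 1 of 7 members passed, against 0.482% of all genes (107 genes), and 5 had an unadjusted p under 0.05, against 11.3% of all genes. The 107 genes became 6 without Ly-6D+ PBS replicate 1 and 216 without Ly-6D- CpG replicate 3, the extremes over the arrays left out. Vpreb3 fell by 1.06 on the log2 scale, a 2.08-fold change (SE 0.14, limma adjusted p = 0.0152). All 3 CpG arrays were below the PBS arrays in each population. The call was lost when either Ly-6D+ PBS array was left out, with adjusted p = 0.0602 without replicate 1 and 0.0859 without replicate 2. Of the others, Cd79a had a log2 change of -0.68 (SE 0.19, limma adjusted p = 0.194), uncertain in size because of its low Ly-6D- CpG arrays. The log2 change was -0.56 for Igll1 (SE 0.15, adjusted p = 0.171) and -0.49 for Vpreb2 (SE 0.21, adjusted p = 0.422). Mzb1 was at -0.42, Cd79b at -0.17 and Vpreb1 at 0.01, with none of them past the test.

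**Figure D4:**
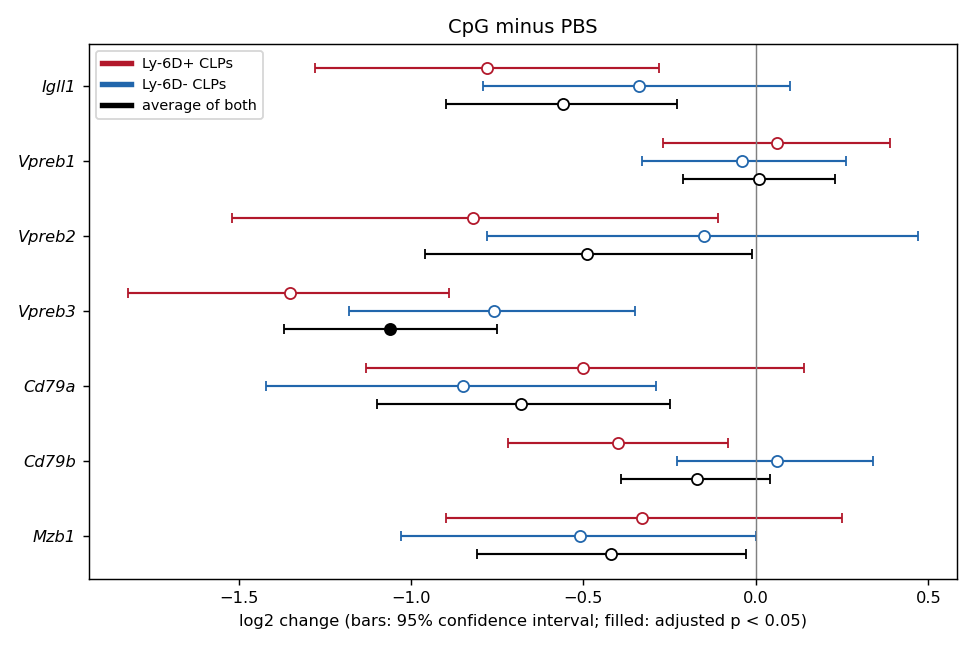
Log2 change after CpG relative to PBS (x axis, bars are 95% confidence intervals) for each member in both populations and as their average. Only the average of Vpreb3, at -1.06, is filled as past the test, and most other points lie below 0.

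The difference between the CpG effects of the populations was tested as an interaction. By limma, 0 of the 7 members and 0 of 22180 genes (0%) passed, with 1 member and 1413 genes at an unadjusted p under 0.05. The member was Cd79b, with a difference of -0.46 between its CpG effects in Ly-6D+ and Ly-6D- CLPs (95% interval -0.89 to -0.03, limma adjusted p = 0.770). For Vpreb3 the difference was -0.59 (95% interval -1.21 to 0.03, adjusted p = 0.800) and for Vpreb2 it was -0.66 (95% interval -1.60 to 0.28, adjusted p = 0.855). The populations were thus not shown to differ in their CpG effect for any member, and the intervals of Vpreb3 and Vpreb2 reach past 1 log2 unit.

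The kinases and adaptors that act below the receptor were measured for 16 of 20 listed genes. After PBS, 7 were higher in Ly-6D+ CLPs past the test and 0 lower, with a list median of 0.53. Over all genes, 1.18% passed upward after PBS and 1.2% after CpG. Blk, a Src-family kinase of B cells, was 7.39-fold higher (log2 difference 2.89, SE 0.22, limma adjusted p = 6.51e-05). Prkcb, a protein kinase C of B-cell receptor signalling, was 3.52-fold higher (1.82, SE 0.16, adjusted p = 2.25e-04), and Blnk, the adaptor that links Syk to its targets, was 2.83-fold higher (1.5, SE 0.19, adjusted p = 0.00227). After CpG, 5 passed upward and 0 downward, among them Blk (3.13, SE 0.19), Blnk (1.93, SE 0.17) and Prkcb (1.53, SE 0.15).

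With CpG, 0 of these 16 genes passed in Ly-6D+ CLPs, and 4 of 16 had an unadjusted p under 0.05, against 6.51% of all genes. Syk, the receptor's kinase, was at -0.42 there (SE 0.13, limma adjusted p = 0.546) and Blk at -0.65 (SE 0.22, adjusted p = 0.587). In Ly-6D- CLPs, 1 of 16 passed, against 0.546% of all genes. Bank1, a scaffold of B-cell receptor signalling, fell by 0.97 (SE 0.13, limma adjusted p = 0.0190), at 5.60 ± 0.10 after CpG against 6.57 ± 0.23 after PBS (SD, n = 3 each). Bank1 also passed on average (-0.63, SE 0.10, adjusted p = 0.0309), and Blk did not (-0.77, SE 0.15, adjusted p = 0.0576). The call of Bank1 in Ly-6D- CLPs was lost in a fit of only the groups compared (adjusted p = 0.101). Its calls were also lost without some single arrays, with an adjusted p of up to 0.0997 in Ly-6D- CLPs (without replicate 1 or 2 of either Ly-6D- group) and up to 0.122 on average (any array other than replicate 2 of Ly-6D+ CpG and replicate 3 of either Ly-6D- group).

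Of the 22 listed B-lineage transcription factors, 21 were measured, and after PBS 8 were higher in Ly-6D+ CLPs past the test and 0 lower. The shares of all genes that passed upward were 1.18% after PBS and 1.2% after CpG. Downward, 177 of 22180 genes passed after PBS and 208 after CpG. Ebf1, which opens the B-cell programme, was 12.5-fold higher, at 9.15 ± 0.00 (SD, n = 2) against 5.50 ± 0.15 (SD, n = 3) in Ly-6D- CLPs (log2 difference 3.64, SE 0.19, limma adjusted p = 9.24e-06). Pax5, which commits cells to the lineage, was 5.96-fold higher (2.57, SE 0.19, adjusted p = 5.08e-05). Pou2af1, the coactivator that works with octamer-binding factors, was 14.5-fold higher (3.86, SE 0.33, adjusted p = 1.48e-04). After CpG, 10 passed upward, including Ebf1 (3.85, SE 0.17), Pou2af1 (2.83, SE 0.29) and Pax5 (2.53, SE 0.17), and 1 passed downward, Spi1, which encodes the myeloid and lymphoid factor PU.1 (-0.79, SE 0.13, limma adjusted p = 0.00944), named outside the rule after its value was seen.

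With CpG, Pou2af1 was the only one of the 21 factors past the test on average, where 0.482% of all genes passed. It fell by 1.37 on the log2 scale, 2.59-fold (SE 0.22, limma adjusted p = 0.0309). In Ly-6D+ CLPs it was at 6.85 ± 0.37 (SD, n = 3) after CpG against 8.74 ± 0.10 (SD, n = 2) after PBS, a log2 change of -1.89 that did not pass (SE 0.33, adjusted p = 0.120) but did without Ly-6D- CpG replicate 3 (adjusted p = 0.0430). In Ly-6D- CLPs it was at 4.02 ± 0.68 after CpG against 4.88 ± 0.13 after PBS (SD, n = 3 each), a log2 change of -0.86 (SE 0.29, adjusted p = 0.256). The lowest of these CpG levels of Pou2af1, 3.36, lay under the array medians, so this change and the average are uncertain in size. Its averaged call was lost when any single array was left out, except replicate 1 of Ly-6D+ CpG and replicates 2 and 3 of Ly-6D- CpG (adjusted p up to 0.117). Ebf1 had an averaged change of -0.62 (SE 0.13, adjusted p = 0.0837) and Pax5 one of -0.37 (SE 0.13, adjusted p = 0.280), and neither passed.

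Early B-lineage surface and recombination genes were measured for 8 of 9 listed, where 1.18% of all genes passed upward between populations after PBS and 1.2% after CpG. After PBS 2 were higher in Ly-6D+ CLPs past the test, Bst1, an ectoenzyme of early B cells (1.47, SE 0.17, limma adjusted p = 0.00168), and Il7r (0.68, SE 0.14, adjusted p = 0.0365). After CpG 4 passed upward, Bst1, Il7r (1.46, SE 0.13), Arpp21 (1.12, SE 0.10) and Rag2, a subunit of the recombinase that assembles immunoglobulin genes (0.86, SE 0.11). With CpG 3 of the 8 fell past the test in Ly-6D- CLPs, where 0.546% of all genes passed in either direction. Arpp21 had a log2 change of -0.86 (SE 0.10, limma adjusted p = 0.0108), Il7r one of -0.81 (SE 0.13, adjusted p = 0.0300) and Rag2 one of -0.75 (SE 0.11, adjusted p = 0.0221). In Ly-6D+ CLPs 0 passed, with 1 at an unadjusted p under 0.05, and the same genes were at -0.05 (Arpp21), -0.03 (Il7r) and -0.14 (Rag2). The difference between the populations did not pass for Arpp21 (0.81, SE 0.16, limma adjusted p = 0.488), Il7r (0.78, SE 0.19, adjusted p = 0.583) or Rag2 (0.61, SE 0.16, adjusted p = 0.622). On average Arpp21 (-0.46, SE 0.08, limma adjusted p = 0.0405) and Rag2 (-0.45, SE 0.08, adjusted p = 0.0469) passed, as did 0.482% of all genes.

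The calls on these genes were sensitive to single arrays and to which groups were fitted. With only the groups compared, the calls were lost for Bst1 after PBS (adjusted p = 0.056) and for Arpp21 (0.101), Rag2 (0.107) and Il7r (0.133) with CpG in Ly-6D- CLPs. The averaged Rag2 call was also lost with arrays centred on their medians (adjusted p = 0.0655). In Ly-6D- CLPs the adjusted p rose to as much as 0.0716 for Arpp21 (without Ly-6D- CpG replicate 1 or 2), 0.117 for Rag2 (without either of these or any Ly-6D- PBS array) and 0.132 for Il7r (the same 5 arrays, either Ly-6D+ PBS array or Ly-6D+ CpG replicate 1). The Il7r call between populations after PBS was lost without any single array other than replicates 2 and 3 of the CpG groups (adjusted p up to 0.176). The averaged calls of Arpp21 (adjusted p up to 0.142) and Rag2 (up to 0.149) were lost without any single array other than Ly-6D- CpG replicate 3.

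The chaperones with which Mzb1 works were set beside it. Of 11 listed genes of immunoglobulin folding in the endoplasmic reticulum, 10 were measured, and by limma 0 passed in any of the 6 comparisons. At an unadjusted p under 0.05 there were 3 between populations after PBS (against 11.9% of all genes), 4 for CpG in Ly-6D- CLPs (against 12%) and 4 for the average of the CpG effects (against 11.3%). After PBS the list median was 0.20 in Ly-6D+ relative to Ly-6D- CLPs, against 3.21 for Mzb1. With CpG all 10 were higher on average, by a median of 0.11, where Mzb1 had a log2 change of -0.42.

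**Figure D5:**
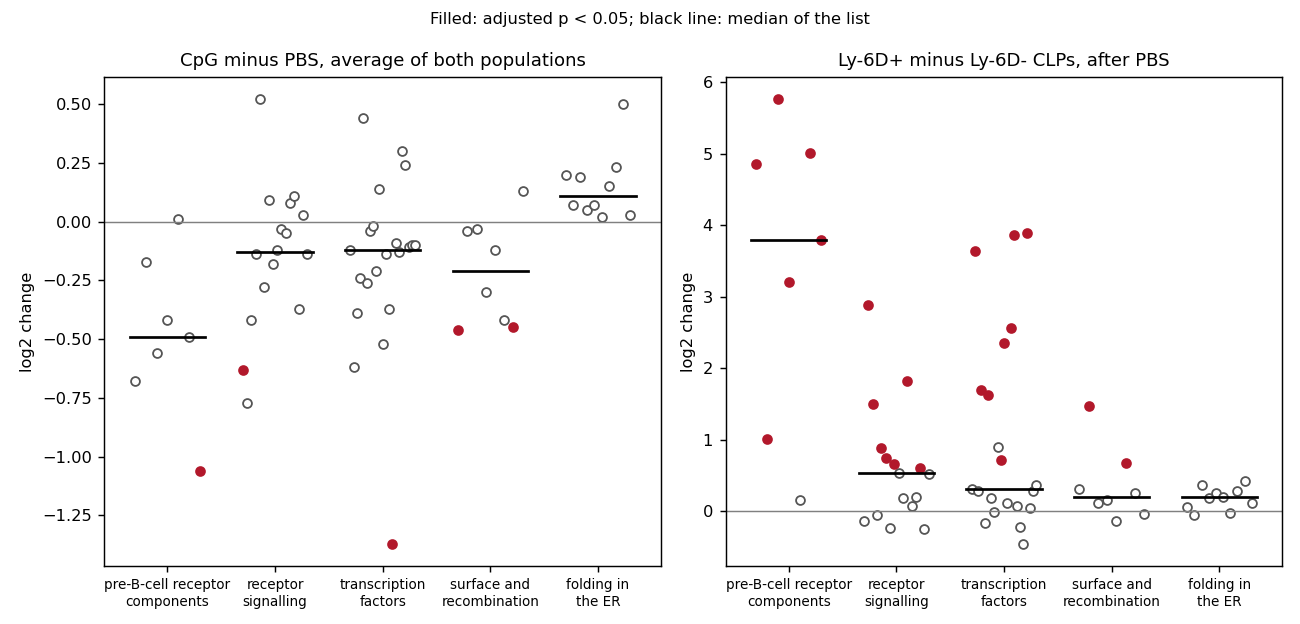
Log2 change of each measured gene (points) in the members and the 4 related lists, for CpG relative to PBS averaged over both populations (left) and for Ly-6D+ relative to Ly-6D- CLPs after PBS (right). The members have medians of -0.49 and 3.79, and the folding list has 0 filled points in either panel.

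Markers of myeloid cells and of CLPs moved with CpG. Of 15 granulocyte and monocyte markers, 11 were higher and 4 lower in Ly-6D- CLPs after CpG. Past the test 3 rose and 0 fell, against 0.546% of all genes in either direction. Among the 3 was the chemokine receptor Ccr2, at 8.61 ± 0.45 after CpG against 7.04 ± 0.15 after PBS (SD, n = 3 each; log2 change 1.57, SE 0.19, limma adjusted p = 0.0101). The summed level of the list was 14.21 to 14.53 in Ly-6D- CLPs after CpG against 14.06 to 14.18 in Ly-6D- CLPs after PBS, and 13.87 to 14.05 in Ly-6D+ CLPs after CpG against 13.77 to 14.09 in Ly-6D+ CLPs after PBS. In Ly-6D+ CLPs 8 of the 15 were higher and 7 lower after CpG. There 0 passed by limma, with 4 at an unadjusted p under 0.05, against 6.51% of all genes. In Ly-6D- CLPs all 4 measured CLP markers were lower after CpG, 1 of them (Il7r) past the test, with a summed level of 11.28 to 11.68 after CpG against 11.89 to 11.92 after PBS. Of 8 stem cell markers 6 were lower there, 0 past the limma test and 4 at an unadjusted p under 0.05, against 12% of all genes. Their summed level was 9.45 to 9.67 after CpG against 9.92 to 9.94 after PBS. The part of these markers in the members' changes was not tested.

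The members varied together over the 11 arrays, apart from Vpreb1. Pearson's r was 0.991 between Igll1 and Vpreb2 and 0.985 between Cd79a and Mzb1, and between 0.885 and 0.928 for Cd79b with the other members except Vpreb1. For Vpreb1 with the other members it was 0.552 to 0.648. The arrays fall into 2 populations and these values mostly reflect the step between them, so they describe the pattern only. By the same measure, among 3147 other genes with a range of at least 1 log2 unit, the 6 most like the members' mean profile were Stambpl1 (0.986), a deubiquitinase, Siglech (0.983), Ebf1 (0.981), Gfra2 (0.980), Pax5 (0.980) and Cecr2 (0.979).

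For single members, the most similar gene was Pax5 for Igll1 (r = 0.993), Slc25a1, the mitochondrial citrate carrier, for Vpreb2 (0.992) and Blk for Vpreb3 (0.990). It was Siglech for Cd79a (0.990), Tifa for Cd79b (0.976), Ebf1 for Mzb1 (0.994) and Tmem221 for Vpreb1 (0.902). Gfra2, a coreceptor for neurturin, was at 7.11 ± 0.46 (SD, n = 3) in Ly-6D+ CLPs after CpG against 8.64 ± 0.14 (SD, n = 2) after PBS, a log2 change of -1.52 that did not pass (SE 0.28, limma adjusted p = 0.164). In Ly-6D- CLPs it was at 4.11 ± 0.47 after CpG against 4.15 ± 0.13 after PBS (SD, n = 3 each).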

How the data were processed

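Total RNA of sorted CLPs was amplified (NuGen SPIA) and hybridised to 11 arrays, per the labels' protocols. The authors used RMA in Partek to produce the deposited log2 values, per the submitters' processing notes, while their versions and settings were not given in the sources used here. In general RMA normalises quantiles across arrays and compresses low levels. The table held 41345 probe sets, of which 23521 carried 1 gene symbol, 1814 several and 16010 none in the supplied probe table. Each of 22180 genes was represented by its brightest single-symbol probe set.

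One linear model with a mean per group was estimated by limma 3.58.1 under R 4.3.3 (lmFit, eBayes; 7 residual and 3.48 prior degrees of freedom), and 6 contrasts were adjusted by Benjamini-Hochberg over all genes, with a threshold of 0.05. SE is the moderated standard error of a log2 change. Python 3.11.15, pandas 2.3.3 and matplotlib 3.10.9 prepared tables and figures. On simulated data with 200 genes changed 2-fold among 22180, the fit recovered 79% for the CpG effect in the Ly-6D+ population and 86% for that in the Ly-6D- population. It recovered 96% for their average, 45% for the interaction, and 88% after CpG and 85% after PBS between populations. These rates hold for 200 changed genes, need not hold in the data and are not the power for a single member. In the data 6 genes passed for CpG in Ly-6D+ CLPs, and Vpreb3, changed 2.56-fold there, did not pass.

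The members, gene lists and motifs were chosen with earlier results of these data known. Named genes were all members, up to 3 genes of each pathway list with the smallest p in a comparison, the 6 genes most like the members' mean profile, the most similar gene of each member, and Ly6d, some of which were left out of the text for readability. Outside this rule, Il7r, Flt3, Kit, Ms4a1, Ighm, Cd37, Sdc1, Cr2, Fcer2a, Ccr2 and Spi1 were named as markers or single calls, and Bst1 after CpG to complete a count. Similarity considered genes with a range of at least 1 log2 unit and no predicted or numbered symbol. Sequences are RefSeq's, build GRCm38.p6, held for 5 of the 7 members. Alternatives were other settings of the fit, filters, normalisations, blocks, and leaving out each array.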

Additional observations from a re-analysis of the deposited data

How the results depend on the processing

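The count of members past the test was recomputed under 10 settings of the fit, including a looser threshold of 0.10, and with each of 11 arrays left out. Of 124 counts, 109 equalled the count reported. Of the 15 others, 9 moved between 5 and 6 members with the call of Cd79b (7 after CpG, 2 after PBS). For CpG in Ly-6D+ CLPs the count was 1 in place of 0 with the replicate block (Vpreb3 at -1.47, limma adjusted p = 0.0443) and with the trended, robust variance, and 0 to 1 when arrays were left out. For CpG in Ly-6D- CLPs and for the average it was 0 to 1 when arrays were left out. In these cases the gene was Vpreb3, and the cause was not tested. Same-numbered arrays deviated together only weakly (correlations of -0.034 to 0.176). Whether they were paired is not given, and this check cannot exclude it, since differently numbered arrays were not compared. The replicate block changed no other count of members. With it the averaged calls of Arpp21 (adjusted p = 0.0651) and Rag2 (0.0601) and that of Il7r after PBS (0.0739) were lost. Those of Arpp21 and Rag2 were also lost with the block within treatment (0.0535 and 0.0611). Single members turned sign in 15 fits, all with changes that did not pass. With arrays left out, Vpreb1 ranged from -0.08 to 0.20 for CpG in Ly-6D+ CLPs, -0.07 to 0.02 in Ly-6D- CLPs, -0.06 to 0.08 on average and -0.05 to 0.24 for the difference, and its average was -0.00 with array weights and -0.01 with the replicate block. In Ly-6D- CLPs, Vpreb2 ranged from -0.53 to 0.03 and Cd79b from -0.06 to 0.20. Mzb1 ranged from -0.12 to 0.40 for the difference, and Bst1 from -0.43 to 0.05 for CpG in Ly-6D+ CLPs. Without 1 of the 2 Ly-6D+ PBS arrays the other is assumed to vary like the other groups. Testing each further probe set of a member gave no value, since each member has 1. The arrays give no depth, and 2 or 3 per group limit what can be detected.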
